A study of Mus musculus with 66 samples.

Results

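Motor neuron progenitors (pM) that had switched on NFIA at day 9 of an embryonic stem (ES) cell differentiation were compared with the NFIA-negative pM progenitors of day 7. The comparison rests on 6 of the 66 libraries of the series, chosen by their labels alone: 3 WT D9 pM NFIAp libraries (replicates 1, 2 and 3) and 3 WT D7 pM NFIAn libraries (replicates 1, 2 and 3). Mouse ES cells were differentiated into ventral spinal cord progenitors, and the series sampled WT and MUT cells every other day from D5 to D11. Both groups carry the WT genotype and come from the same protocol: bFGF (10 ng/ml), on day 2 CHIR99021, which inhibits GSK3 (5 µM), and on day 3 retinoic acid (100 nM) with SAG, which activates Smoothened (10 nM). On day 5 the retinoid was taken away while SAG stayed, so the cells of D7 and later had been without added retinoic acid since that day. The D5 libraries described at the end are from the day of that change. Cells were fixed with glyoxal, stained inside the cell, and sorted by domain and by NFIA protein. Each population held 10000 to 15000 cells, from which polyadenylated RNA was sequenced. The labels name no ES cell line and do not say whether a replicate number stands for a culture of its own. The p-values hence reflect library-to-library spread, which may be technical. That spread was estimated for each gene within the groups of all 66 libraries, MUT cells and other domains included. The errors given are thus not the spread of the 6 libraries alone. Groups that lie apart in pM may still not pass where a gene varied in other groups.

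The 6 libraries held 21.6 to 28.7 M recovered reads and 13499 to 15025 genes above 0. D7 replicate 3, D9 replicate 2 and D9 replicate 3 summed to between 30.12 and 37.36 M normalised counts, and the remaining 3 to between 19.46 and 23.71 M. In the series 18 libraries had such high totals. Ribosomal protein genes took 11.65 to 16.29% of the counts in those 3 libraries and 6.052 to 7.336% in the other 3. For the main comparison, signs were therefore also read in replicate 1 alone and within each class of totals. In bulk RNA, fewer cells of a type and less RNA per cell cannot be told apart.

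Motor neuron progenitors are the domain of the ventral neural tube marked by the transcription factor OLIG2. They first make motor neurons and later turn to glia, chiefly oligodendrocyte precursors and some astrocytes. NFIA, together with its relative NFIB, is a transcription factor of that turn: it appears in progenitors after the early neurogenic period, follows SOX9, and is needed for the first astroglial genes. Earlier progenitors carry an opposite set of timing genes, among them the RNA-binding proteins LIN28A and LIN28B, which hold back maturation of let-7 microRNAs.

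The labelled domain was checked on its markers. Olig2 lay between 902 and 4544 normalised counts in D9 NFIAp pM and between 776 and 1124 in D7 NFIAn pM, whereas the neighbouring p2 domain held 30 to 86.8 counts at the same 2 steps. Irx3, which marks p2 and more dorsal progenitors, lay at 125 to 461 counts in D9 NFIAp pM and 154 to 175 in D7 NFIAn pM, against 637 to 1430 in p2. Foxn4 and Vsx1, genes of the V2 lineage, reached at most 63 counts in pM and at least 152 in p2. Isl1, made by young motor neurons, was high in both pM groups, at 5133 to 5923 counts in D9 NFIAp and 4124 to 4841 in D7 NFIAn. Markers of other tissues were low but not absent. The summed level of 9 neural crest genes was 207 to 387 counts in D9 NFIAp and 446 to 784 in D7 NFIAn. Erbb3 was at 0 in all 6 libraries. Of the 5 members tested only Ngfr was lower in D9 NFIAp (-1.84 ± 0.56, adjusted p = 0.031). The other 4 had positive differences that did not pass, and the list median was 0.40. For 8 endoderm genes the summed level was 30.1 to 94.4 in D9 NFIAp and 147 to 221 in D7 NFIAn, with Afp at 0 in all 6. For 15 mesenchyme genes it was 359 to 770 in D9 NFIAp and 177 to 806 in D7 NFIAn, which overlapped. For 9 genes of p3 and the floor plate it was 5206 to 8470 in D9 NFIAp and 1307 to 2270 in D7 NFIAn. Most of that sum was Spon1, with 6090, 4018 and 4504 counts in D9 NFIAp against 1084, 1023 and 648 in D7 NFIAn, while the defining genes Foxa2 and Shh stayed at or below 6.59 counts and Nkx2-2 at or below 23.1. Nkx2-9, also on that list, went the other way, with 29.2, 20.6 and 36.7 counts in D9 NFIAp against 180, 238 and 151 in D7 NFIAn. Its groups did not overlap, but the difference did not pass (-2.69 ± 1.02, adjusted p = 0.092). The part of such cells in the results was not tested.

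Of 13259 genes tested, 1154 passed an adjusted p of 0.05 between D9 NFIAp and D7 NFIAn pM, which is 8.7% of them. The higher genes numbered 619 (4.67%) and the lower genes 535 (4.03%), and the balance turned to 343 higher and 410 lower without D9 NFIAp replicate 1. The 3 libraries of each group did not overlap for 3084 genes (23.3%), and for 1094 of the 1154 that passed. In replicate 1 alone 1152 of the 1154 kept their sign, and 1152 kept it within both classes of totals. These libraries are part of the fit, so genes that passed would mostly keep their sign in them. Over all genes tested, 80.7% kept it in replicate 1 alone, 83.2% at lower totals and 70.7% at high totals. The median log2 difference over all genes tested was 0.01, and 897 of the genes that passed differed by at least 1 on the log2 scale. When only the 6 libraries compared were fitted, 267 genes passed. The count was 712 without D7 replicate 1, 540 without D7 replicate 2, 1590 without D7 replicate 3, 753 without D9 NFIAp replicate 1, 884 without D9 NFIAp replicate 2 and 718 without D9 NFIAp replicate 3.

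Nfia and Nfib were both higher in D9 NFIAp cells. Nfia (GRCm38 chr4:97772734-98118874, plus strand) had 2305, 497 and 449 normalised counts in D9 NFIAp, against 98.9, 94.7 and 41.5 in D7 NFIAn. The D9 libraries all lay above the D7 libraries, and D9 replicate 1 stood well above the other 2. The log2 difference was 3.44 ± 0.59 (SE of the fit, n = 3 against 3, adjusted p = 6.3e-05), with 4.56 among libraries of lower totals and 3.48 among those of high totals. Since the cells were sorted on NFIA protein, the Nfia transcript is a check of the labels and no finding. It did not separate the gates of day 9: D9 NFIAn libraries had 670 and 282 counts, which overlapped D9 NFIAp (0.88 ± 0.66, adjusted p = 1). Nfib (chr4:82290173-82705750, minus strand) had 774, 316 and 361 counts in D9 NFIAp and 27.3, 16.5 and 10.8 in D7 NFIAn. It rose by 4.63 ± 0.59 (adjusted p = 2e-07) with no overlap. Nfix, another family member, stayed low, with 15.9, 22.1 and 3.15 counts in D9 NFIAp and 11.1, 2.47 and 0 in D7 NFIAn, and did not pass (1.76 ± 1.09, adjusted p = 0.33).

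Of 18 tested transcription factors of late progenitors 5 passed upward (27.8%, against 4.67% of all genes), namely Nfia, Nfib, Hopx, Npas3 and Id4. The other 13 did not pass. Nfia enters the counts and the median of this list but is no finding, since the cells were sorted on its protein. The list's median log2 difference was 1.18 against 0.01 over all genes. The rising count was 8 by DESeq2, with the replicate block over all libraries or with correlated libraries (those that share genotype, day and number), and 9 with a term for libraries of high total. The list held no member that passed downward in limma, edgeR or DESeq2, and 0 had an unadjusted p under 0.05 in that direction. Hopx, a homeodomain-only protein of radial glia and quiescent stem cells, had 1282, 1178 and 1155 counts in D9 NFIAp against 52.8, 61 and 53.8 in D7 NFIAn. The 3 libraries of each group lay close together, and it rose by 4.41 ± 0.54 (adjusted p = 1e-07). Npas3, a bHLH-PAS factor of neural progenitors, rose by 2.21 ± 0.50 (adjusted p = 0.0027). Id4, an inhibitor of bHLH factors, had 926, 160 and 186 counts in D9 NFIAp against 98, 50.3 and 58.4 in D7 NFIAn and rose by 2.18 ± 0.52 (adjusted p = 0.0049). That call rests on D9 replicate 1, without which the difference was 1.37 (adjusted p = 0.11). Sox9, which precedes NFIA in gliogenesis, had 9050, 4001 and 3660 counts in D9 NFIAp against 2856, 2542 and 1258 in D7 NFIAn. Its libraries did not overlap, but the difference of 1.29 ± 0.49 did not pass (adjusted p = 0.09). Sox9 did pass with the replicate block over all libraries (adjusted p = 0.0091) or on the groups compared (0.023), with correlated libraries (0.027), with the high-total term (1.8e-05), without the libraries of high total (0.022) and in DESeq2 (0.048).

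**Figure D1:**
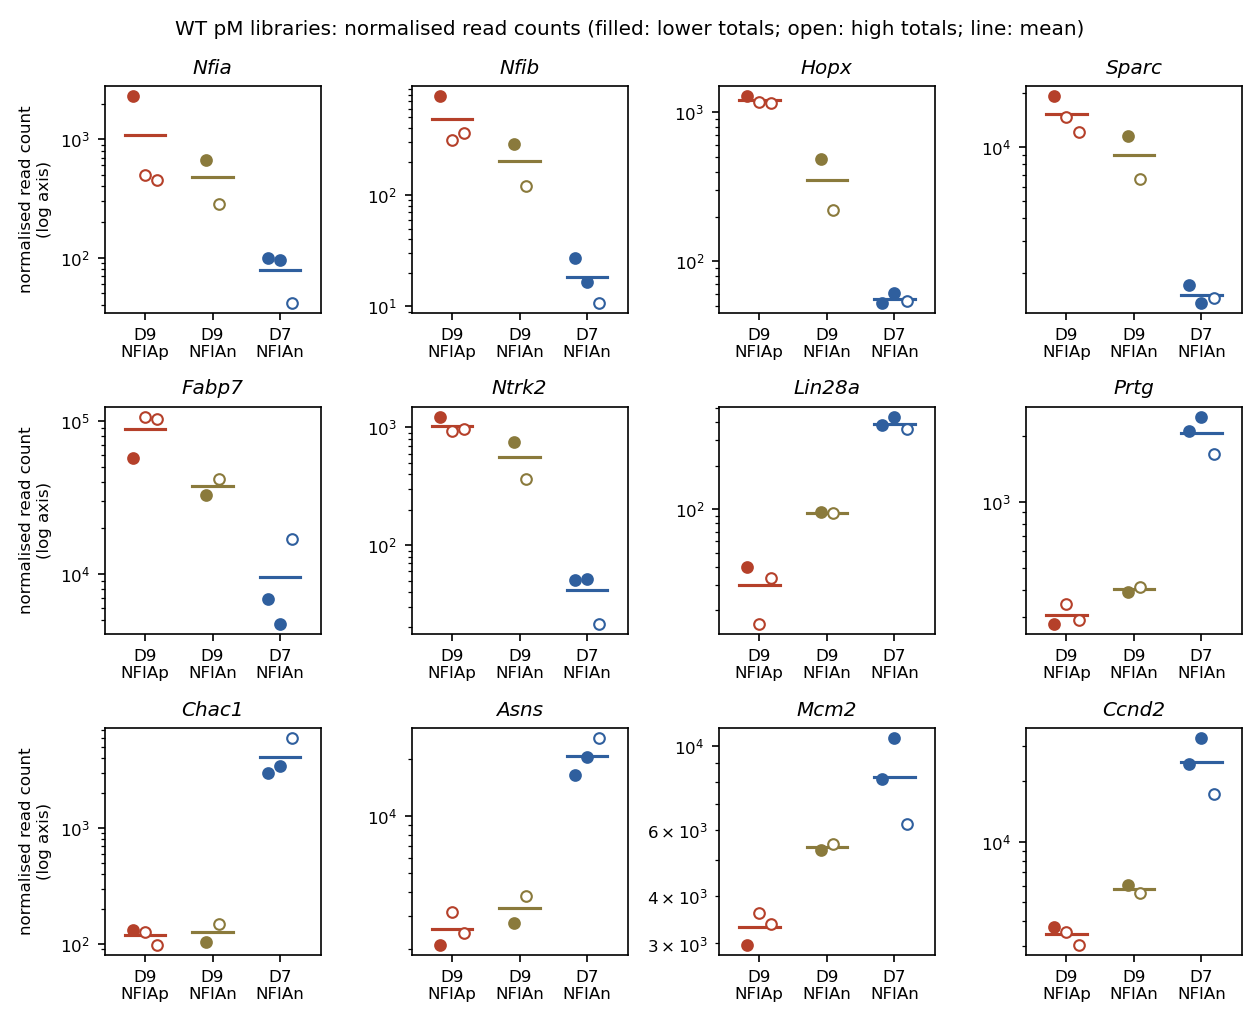
Normalised read counts (log axis) of 12 genes in each WT pM library of D9 NFIAp, D9 NFIAn and D7 NFIAn, with filled points for lower totals, open points for high totals and a line at each mean. For all 12 genes the D9 NFIAp libraries lie wholly above or wholly below the D7 NFIAn libraries, as for Hopx at 1155 to 1282 against 52.8 to 61.

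Of 25 tested astroglial genes 11 passed upward (44%, against 4.67% of all genes) and 14 did not pass. The median log2 difference was 1.57, from -2.91 to 4.71, with 1.55 among libraries of lower totals and 1.48 among those of high totals. The members that passed downward numbered 0 in limma, edgeR and DESeq2, and 1 had an unadjusted p under 0.05. The summed level of the list was 126561 to 160034 counts in D9 NFIAp and 21448 to 42255 in D7 NFIAn. Fabp7, the brain fatty acid binding protein of radial glia, had 57661, 105741 and 102809 counts in D9 NFIAp against 6898, 4744 and 16959 in D7 NFIAn, a rise of 3.38 ± 0.63 (adjusted p = 0.00028). Here the libraries of high totals were the higher ones within each group, yet the groups did not overlap.

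The matrix glycoprotein gene Sparc had 19094, 14645 and 12149 counts in D9 NFIAp against 1700, 1359 and 1444 in D7 NFIAn (3.33 ± 0.31, adjusted p = 8.9e-11). Ntrk2, which encodes the receptor for BDNF, had 1218, 925 and 966 counts in D9 NFIAp against 50.3, 51.9 and 21.5 in D7 NFIAn (4.71 ± 0.47, adjusted p = 4.8e-10). Slc1a3, the glutamate transporter GLAST, had 4351, 2527 and 2794 counts in D9 NFIAp against 458, 638 and 275 in D7 NFIAn (2.86 ± 0.35, adjusted p = 6.2e-08). For all 3 genes the lowest D9 NFIAp library stood several times above the highest D7 library. Ptprz1, a receptor phosphatase of glial progenitors, rose by 3.69 ± 0.49 (adjusted p = 4.5e-07). Ncan, which encodes the proteoglycan neurocan, had 13219, 2820 and 4456 counts in D9 NFIAp against 1287, 986 and 679 in D7 NFIAn (2.53 ± 0.57, adjusted p = 0.0029). Without D9 replicate 1 the Ncan difference was 1.90 and no longer passed (adjusted p = 0.055).

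Among other members of the astroglial list, Aqp4, the water channel of astrocyte endfeet, had at most 1.05 counts in D9 NFIAp and was at 0 in all D7 libraries, too low to be tested. Gja1, which encodes connexin 43, had 2252, 855 and 1200 counts in D9 NFIAp against 1793, 2079 and 1177 in D7 NFIAn, and the groups overlapped (-0.31 ± 0.33, adjusted p = 0.61). Glul, glutamine synthetase, overlapped as well, with 3267, 1954 and 1983 counts in D9 NFIAp and 1841, 1518 and 3091 in D7 NFIAn (0.18 ± 0.24, adjusted p = 0.68).

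Radial glial genes, some of which are also on the astroglial list, rose in 6 of 18 cases (33.3%) and fell in 1 (5.56%), with a median of 0.47. Over all genes 4.67% were called higher and 4.03% lower. Ttyh1, a volume-regulated anion channel family member of neural stem cells, had 4674, 4190 and 4167 counts in D9 NFIAp against 598, 507 and 558 in D7 NFIAn (2.97 ± 0.31, adjusted p = 1.9e-09). Ednrb, the endothelin B receptor, rose by 1.93 ± 0.38 (adjusted p = 0.00048). Oligodendrocyte lineage genes passed upward in 3 of 14 cases (21.4%) and downward in 1 (7.14%), and none of the 3 passed without the libraries of high totals. Cnp, a gene of oligodendrocyte myelin that progenitors also transcribe, rose by 1.39 ± 0.26 (adjusted p = 0.00022). Sox10, the lineage's defining SOX factor, was low, with 89.4, 48.5 and 57.7 counts in D9 NFIAp and 2.56, 7.41 and 6.15 in D7 NFIAn. It rose by 3.42 ± 1.01 (adjusted p = 0.024), a call lost without D7 replicate 1 (adjusted p = 0.11), without D7 replicate 2 (0.054), without D9 NFIAp replicate 1 (0.086) or without D9 NFIAp replicate 3 (0.061). Cspg4, which marks oligodendrocyte precursors as NG2, was at 0 in all 3 D9 NFIAp libraries and reached 5.11 counts at D7.

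Early embryonic timing genes fell. Of 15 tested members 8 passed downward (53.3%, against 4.03% of all genes). The median log2 difference was -1.59, and all 15 had a negative difference. The members that passed upward numbered 0 in limma, edgeR and DESeq2, with 0 at an unadjusted p under 0.05. Lin28a had 39.8, 16.2 and 33.6 counts in D9 NFIAp against 381, 433 and 358 in D7 NFIAn. The groups were far apart, and the log2 difference was -3.75 ± 0.53 (adjusted p = 2.2e-06). Lin28b had 32.7, 134 and 112 counts in D9 NFIAp against 537, 510 and 273 in D7 NFIAn (-2.40 ± 0.39, adjusted p = 2.4e-05). Nr6a1, an orphan nuclear receptor of the developing trunk, had 62.8, 92.7 and 22 counts in D9 NFIAp against 485, 612 and 243 in D7 NFIAn (-3.01 ± 0.50, adjusted p = 4.3e-05). Prtg, a cell-surface protein of early neural tissue, fell by 2.75 ± 0.30 on the log2 scale (adjusted p = 4e-09), with 280, 344 and 292 counts in D9 NFIAp against 2114, 2443 and 1656 in D7 NFIAn.

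Members of that list known to act with the LIN28 proteins did not all move. Hmga2, a chromatin protein and let-7 target, had 2957, 2471 and 2003 counts in D9 NFIAp and 3133, 2238 and 2355 in D7 NFIAn, which overlapped (-0.06 ± 0.24, adjusted p = 0.91). Igf2bp3, an RNA-binding protein, overlapped too (-0.40 ± 0.24, adjusted p = 0.31). Mycn, a MYC family factor of growing progenitors, had 1901, 1829 and 1915 counts in D9 NFIAp against 3608, 3765 and 2411 in D7 NFIAn, without overlap but also without passing (-0.77 ± 0.37, adjusted p = 0.2).

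Genes of the integrated stress response fell. In this program the factors ATF4 and CHOP switch on amino acid synthesis, amino acid transport and transfer RNA charging. Of 35 tested members 24 passed downward in limma (68.6%, against 4.03% of all genes), and edgeR and DESeq2 each called 24 as well. The members that passed upward numbered 0 in all 3 tools, with 0 at an unadjusted p under 0.05. The median log2 difference was -1.77, with -1.55 among libraries of lower totals and -1.86 among those of high totals. The summed level was 61416 to 72009 counts in D9 NFIAp and 158497 to 207008 in D7 NFIAn.

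Asns, asparagine synthetase, had 2106, 3132 and 2434 counts in D9 NFIAp against 16436, 20476 and 25744 in D7 NFIAn (-3.02 ± 0.25, adjusted p = 1.5e-12). Mthfd2, a mitochondrial enzyme of one-carbon metabolism, had 870, 821 and 859 counts in D9 NFIAp against 5119, 7044 and 7499 in D7 NFIAn, the smallest adjusted p of the list (-2.93 ± 0.19, adjusted p = 2.1e-15). Chac1, a glutathione-degrading enzyme, had 131, 128 and 98.6 counts in D9 NFIAp against 2985, 3434 and 5969 in D7 NFIAn (-5.05 ± 0.43, adjusted p = 4.7e-12). These 3 enzymes thus separate the groups with wide gaps. Trib3, a pseudokinase that feeds back on ATF4, had 31.9, 5.88 and 11.5 counts in D9 NFIAp against 757, 776 and 768 in D7 NFIAn (-5.76 ± 0.94, adjusted p = 2.8e-05). Atf3, a stress-induced bZIP factor, had 29.2, 39.7 and 8.39 counts in D9 NFIAp against 515, 693 and 850 in D7 NFIAn (-4.90 ± 0.68, adjusted p = 1.3e-06). Pck2, the mitochondrial PEP carboxykinase, fell by 3.35 ± 0.32 on the log2 scale (adjusted p = 1.4e-10).

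Slc7a3, a transporter of cationic amino acids, had 29.2, 48.5 and 10.5 counts in D9 NFIAp against 794, 973 and 1066 in D7 NFIAn (-5.18 ± 0.61, adjusted p = 2.9e-08). Of 5 amino acid transporters on the list 4 fell, and of 7 aminoacyl-tRNA synthetases 6 fell, with log2 differences of the synthetases between -1.65 and -0.77; these subsets were picked after their values were seen. In serine synthesis, Phgdh had 14790, 20444 and 19014 counts in D9 NFIAp against 20980, 21411 and 33115 in D7 NFIAn and did not pass (-0.46 ± 0.26, adjusted p = 0.29). Psph, the last enzyme of that pathway, differed by -0.65 ± 0.33 (adjusted p = 0.22). Both passed after scaling to equal totals and with the high-total term.

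The promoters of this list were searched for TGATGNAA on both strands. These letters are the core of the composite C/EBP-ATF element bound by dimers of ATF4 with C/EBP proteins such as CHOP. The search covered the 250 bases upstream of each start in RefSeq annotation of GRCm38.p6, available for 29 of the 35 members. The letters were found in 9 of the 29 promoters (31%), and in 7 of the 19 that belong to members called lower (36.8%), against 221 of 9996 promoters of genes tested (2.21%) and 1134 of 32851 promoters in the table (3.45%). Over all genes called, the letters were in 18 of 412 promoters of lower genes (4.37%) and 12 of 472 of higher genes (2.54%). The list was written as a program of ATF4 and CHOP, so a high share in it says nothing about the fall. Other motifs were searched as well and are not reported here. A match is a description of the sequence and not of binding. Chac1 and Atf3 are shown as the matches among the 10 genes of largest fall, and Asns and Pck2 were picked after their values were seen. Each is written 5′ to 3′ on the gene's strand with the matching letters, or their reverse complement, in capitals. They lie at chr2:119350992-119351241 (plus), chr1:191183334-191183583 (minus), chr6:7693210-7693459 (minus) and chr14:55540016-55540265 (plus).
Chac1: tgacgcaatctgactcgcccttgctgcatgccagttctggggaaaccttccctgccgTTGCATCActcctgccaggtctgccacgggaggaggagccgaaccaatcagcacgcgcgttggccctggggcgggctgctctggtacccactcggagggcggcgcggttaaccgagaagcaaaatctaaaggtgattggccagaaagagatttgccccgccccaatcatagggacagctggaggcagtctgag
Atf3: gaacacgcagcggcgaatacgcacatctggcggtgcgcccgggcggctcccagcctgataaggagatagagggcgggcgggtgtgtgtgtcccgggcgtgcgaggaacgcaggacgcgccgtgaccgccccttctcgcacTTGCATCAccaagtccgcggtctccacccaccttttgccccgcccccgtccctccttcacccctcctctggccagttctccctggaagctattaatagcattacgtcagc
Asns: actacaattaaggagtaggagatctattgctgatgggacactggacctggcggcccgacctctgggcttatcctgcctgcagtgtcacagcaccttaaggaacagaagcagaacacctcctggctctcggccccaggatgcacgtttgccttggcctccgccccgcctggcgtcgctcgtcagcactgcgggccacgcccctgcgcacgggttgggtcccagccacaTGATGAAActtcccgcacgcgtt
Pck2: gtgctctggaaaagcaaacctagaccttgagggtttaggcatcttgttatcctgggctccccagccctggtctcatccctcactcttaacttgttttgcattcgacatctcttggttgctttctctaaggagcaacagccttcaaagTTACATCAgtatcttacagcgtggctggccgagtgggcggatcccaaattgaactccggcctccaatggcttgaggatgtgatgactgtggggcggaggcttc
The match begins 193 bases upstream of the start in Chac1, 110 in Atf3, 23 in Asns and 103 in Pck2. In the other called members with a match it begins at 110 in Nupr1, 112 in Aars and 30 in Gars. The place thus differs among these genes, though it is close in Atf3, Pck2, Nupr1 and Aars.

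**Figure D2:**
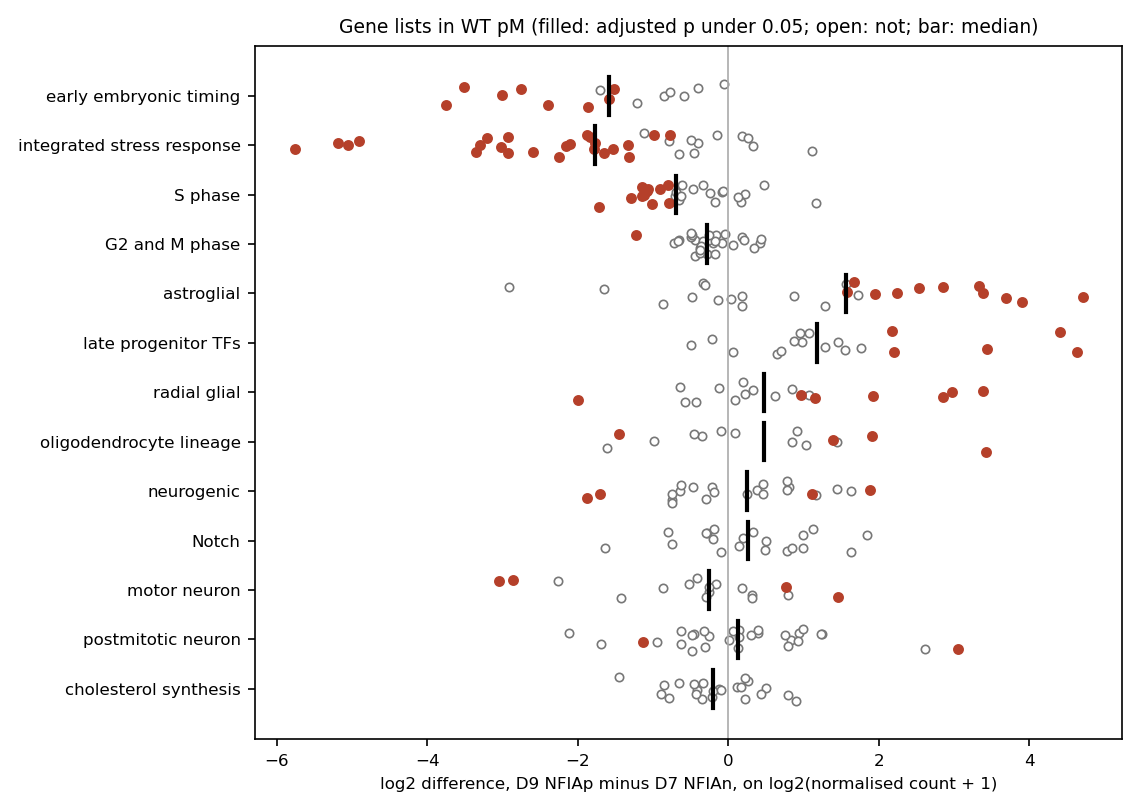
Log2 difference, D9 NFIAp minus D7 NFIAn, of each tested member of 13 gene lists in WT pM, with filled points for members past an adjusted p of 0.05 and a black bar at each median. The medians run from -1.77 for the integrated stress response and -1.59 for early embryonic timing to 1.57 for astroglial genes, while that of all genes is 0.01.

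Genes of DNA replication were lower in D9 NFIAp cells, and genes of mitosis were not clearly so. Of 29 S phase genes 13 passed downward and 0 upward in limma (edgeR called 12 lower and 0 higher, DESeq2 15 and 1), with 18 lower and 1 higher at an unadjusted p under 0.05. The 13 make up 44.8% of the list, against 4.03% of all genes called lower. The falling count was 1 when only the groups compared were fitted, 6 with the replicate block in that fit, and 8 after scaling to equal totals or without the libraries of high total. The median was -0.69, and the summed level was 90837 to 92663 counts in D9 NFIAp against 129989 to 147077 in D7 NFIAn. All 6 subunits of the MCM2-7 helicase, which unwinds DNA at origins, fell, by log2 differences between -1.29 and -0.79; the subset was picked after its values were seen. Mcm7 had 4867, 5152 and 4867 counts in D9 NFIAp against 10163, 10524 and 10490 in D7 NFIAn (-1.07 ± 0.17, adjusted p = 2.4e-05). Mcm2 fell by 1.29 ± 0.25, Cdt1, which loads the helicase, by 1.15 ± 0.22, and Cdca7, a MYC target bound to the chromatin remodeller HELLS, by 1.11 ± 0.22 on the log2 scale (adjusted p = 0.00053, 0.0003 and 0.00057). Pcna, the sliding clamp of the polymerases, overlapped between the groups (-0.24 ± 0.33, adjusted p = 0.7).

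Of 31 genes of G2 and mitosis 1 passed downward and 0 upward in limma, edgeR and DESeq2, with 2 lower and 0 higher at an unadjusted p under 0.05 and a median of -0.28. That is 3.23% lower, near the 4.03% of all genes. Cdk1, the mitotic kinase, had 11099, 8069 and 9434 counts in D9 NFIAp and 7651, 7209 and 10378 in D7 NFIAn, and the groups overlapped (0.19 ± 0.26, adjusted p = 0.71). Ccnb1, which encodes its partner cyclin B1, overlapped likewise (-0.20 ± 0.30, adjusted p = 0.73). Of the D cyclins, which drive exit from G1, Ccnd2 and Ccnd1 fell. Ccnd2 had 3738, 3507 and 3044 counts in D9 NFIAp against 24481, 32902 and 17398 in D7 NFIAn, far from overlapping (-2.82 ± 0.31, adjusted p = 3.5e-09). Ccnd1 had 747, 307 and 457 counts in D9 NFIAp against 1681, 1466 and 1221 in D7 NFIAn (-1.61 ± 0.32, adjusted p = 0.00063). Ccnd1 did not pass without the libraries of high total (adjusted p = 0.18), whereas Ccnd2 passed under every alternative. The partner kinase gene of the D cyclins, Cdk6, had 17.7, 8.83 and 4.2 counts in D9 NFIAp against 128, 93.9 and 46.1 in D7 NFIAn (-3.08 ± 0.66, adjusted p = 0.0017). The CDK inhibitor gene Cdkn1a, which encodes p21, was lower as well (-0.80 ± 0.18, adjusted p = 0.0023). Cdkn1a lost the call without the libraries of high total and when only the groups compared were fitted, with or without the replicate block. Cdk6 lost it when only those groups were fitted without that block (adjusted p = 0.078). On the G1 list as a whole, 4 of 15 fell (26.7%, against 4.03% of all genes) and 1 rose (6.67%, against 4.67%). The falling count was 2 without the libraries of high total.

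Of the 4 tested pM identity genes 0 passed in limma, edgeR or DESeq2, and 0 had an unadjusted p under 0.05. At 8.7% of all genes called, so short a list says little. Olig2 had 4544, 1262 and 902 counts in D9 NFIAp and 1124, 1005 and 776 in D7 NFIAn, with overlap and with D9 replicate 1 far above the rest (0.85 ± 0.95, adjusted p = 0.62). Olig1 had 1147, 1275 and 1182 counts in D9 NFIAp against 437, 557 and 836 in D7 NFIAn, without overlap (1.03 ± 0.88, adjusted p = 0.5). Nkx6-1 overlapped (0.21 ± 0.60, adjusted p = 0.87).

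Neuronal genes were present in both groups. The summed level of 17 motor neuron genes was 16741 to 17711 counts in D9 NFIAp and 16579 to 19045 in D7 NFIAn, and that of 31 genes of postmitotic neurons was 41250 to 54856 in D9 NFIAp and 43592 to 63945 in D7 NFIAn. Their part in the results was not tested either. Of the 17 motor neuron genes 2 passed upward and 2 downward (11.8% each), and of 30 tested postmitotic genes 1 did each way (3.33% each). Over all genes 4.67% were called higher and 4.03% lower, so such counts on short lists say little. Isl1 had 5488, 5923 and 5133 counts in D9 NFIAp against 4841, 4297 and 4124 in D7 NFIAn (0.32 ± 0.48, adjusted p = 0.73). Lhx3, its partner in motor neuron specification, had 1945, 2969 and 3752 counts in D9 NFIAp against 4705, 3970 and 7086 in D7 NFIAn (-0.87 ± 0.51, adjusted p = 0.29). Neither gene's libraries overlapped, yet neither passed. Tubb3, a neuronal tubulin, overlapped (-0.63 ± 0.34, adjusted p = 0.24). Map2, a dendritic microtubule protein, had 1549, 587 and 871 counts in D9 NFIAp against 285, 129 and 36.9 in D7 NFIAn (3.05 ± 0.48, adjusted p = 1.4e-05). Elavl4, a neuronal RNA-binding protein, had 2198, 1957 and 2035 counts in D9 NFIAp against 5315, 4511 and 3847 in D7 NFIAn (-1.13 ± 0.28, adjusted p = 0.0074).

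Of 23 neurogenic genes 2 rose and 2 fell (8.7% each), against 4.67% higher and 4.03% lower over all genes. Neurog2, the main proneural factor of pM, overlapped with 4025, 4765 and 6421 counts in D9 NFIAp and 4347, 4609 and 3680 in D7 NFIAn (0.25 ± 0.34, adjusted p = 0.71). Btg2, an antiproliferative gene of progenitors about to divide into neurons, rose by 1.11 ± 0.29 (adjusted p = 0.0094), though without D9 NFIAp replicate 1 the difference was 0.90 (adjusted p = 0.08). Sstr2, a somatostatin receptor gene, rose by 1.88 ± 0.45 (adjusted p = 0.0051). Of 20 Notch pathway genes 0 passed in limma or edgeR and 2 in DESeq2, with 4 higher and 0 lower at an unadjusted p under 0.05. Hes5, a Notch effector of neural progenitors, had 19745, 11773 and 12784 counts in D9 NFIAp and 10700, 10947 and 12823 in D7 NFIAn (0.33 ± 0.32, adjusted p = 0.56).

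Of 12 tested factors that mark earlier- or later-born neurons, 2 rose (16.7%) and 1 fell (8.33%), against 4.67% and 4.03% of all genes. The list median was -0.10, with 6 positive and 6 negative differences. Bcl11a and Bcl11b rose, and Onecut1 fell (-3.05 ± 0.96, adjusted p = 0.036). Bcl11a, a zinc finger factor, had 798, 568 and 457 counts in D9 NFIAp against 46.9, 38.7 and 38.4 in D7 NFIAn (3.81 ± 0.73, adjusted p = 0.00037). Its relative Bcl11b rose by 3.88 ± 1.06 (adjusted p = 0.014), but the adjusted p was 0.064 without D7 replicate 3 and 0.06 without D9 NFIAp replicate 1. The ephrin receptor gene Epha5, 1 of 2 axon guidance genes that rose of 29 (6.9%, against 4.67% of all genes), had 905, 475 and 476 counts in D9 NFIAp against 72.5, 40.4 and 20 in D7 NFIAn (3.89 ± 0.61, adjusted p = 1.5e-05). Ptbp1, the splicing repressor of non-neural cells, had 2990, 3414 and 2546 counts in D9 NFIAp against 7546, 8261 and 5397 in D7 NFIAn (-1.23 ± 0.27, adjusted p = 0.0023).

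In signalling pathways single members moved, and on such short lists their counts are read only beside the 4.67% of all genes called higher and 4.03% called lower. Of 14 retinoic acid genes 1 rose and 2 fell. The riser was Dhrs3, an enzyme that turns retinaldehyde back into retinol, with 9479, 2439 and 3727 counts in D9 NFIAp against 180, 137 and 217 in D7 NFIAn (4.65 ± 0.51, adjusted p = 3.8e-09). The fallers were Crabp1 (-1.73 ± 0.51, adjusted p = 0.024) and Stra6 (-3.53 ± 1.11, adjusted p = 0.035). Of 17 Wnt genes 2 rose and 3 fell, and the falling count was 1 without D7 replicate 1, without D7 replicate 2 or without D9 NFIAp replicate 2. Axin2, a feedback target of Wnt signalling, had 15, 20.6 and 21 counts in D9 NFIAp against 117, 79.1 and 89.1 in D7 NFIAn (-2.27 ± 0.45, adjusted p = 0.00069). The 2 risers were Wnt7b (2.66 ± 0.76, adjusted p = 0.021) and Dkk3 (2.28 ± 0.68, adjusted p = 0.027). The median of the Wnt list was 0.48, so its members did not move one way. Of 12 BMP and Id genes 2 rose, among them the BMP antagonist gene Nog, with 224, 73.6 and 152 counts in D9 NFIAp against 8.52, 16.5 and 30.7 in D7 NFIAn (2.98 ± 0.66, adjusted p = 0.0023). Slc2a1, the glucose transporter GLUT1, fell to 2363, 3055 and 2490 counts in D9 NFIAp, against 18632, 23137 and 21059 in D7 NFIAn (-2.99 ± 0.25, adjusted p = 3.3e-12), and Egln3, an oxygen-sensing prolyl hydroxylase, rose by 1.72 ± 0.33 (adjusted p = 0.00038). In all, 1 of 23 genes of hypoxia and glycolysis rose (4.35%) and 2 fell (8.7%). Of the 23, 20 had a negative difference, and the median was -0.32.

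Of 26 Hox genes 3 rose (11.5%) and 1 fell (3.85%), against 4.67% and 4.03% of all genes. Hoxa5 had 1404, 1596 and 1336 counts in D9 NFIAp against 481, 410 and 590 in D7 NFIAn, clear of overlap (1.56 ± 0.28, adjusted p = 0.00013). The rising Hox count was 1 without D7 replicate 2 or without D9 NFIAp replicate 3, and 5 without D7 replicate 3. Of 23 cholesterol synthesis genes 0 passed in limma or edgeR and 2 in DESeq2, with 0 higher and 3 lower at an unadjusted p under 0.05.

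The 10 rising genes of largest log2 difference, at a mean of at least 50 counts in the higher group and with libraries that did not overlap, were Sybu, Pcp4, Syn2, Meig1, Npy, Snph, Dmrtb1, C1qtnf3, Slitrk2 and Lrrc38. Sybu, whose product syntabulin links cargo to kinesin, had 714, 505 and 378 counts in D9 NFIAp against 1.7, 0.824 and 1.54 in D7 NFIAn, so it was all but undetected at D7 (7.79 ± 0.77, adjusted p = 2.9e-10). Pcp4, a calmodulin-binding peptide gene, had 663, 1234 and 813 counts in D9 NFIAp against 13.6, 2.47 and 10.8 in D7 NFIAn (6.70 ± 0.68, adjusted p = 6.5e-10). Npy, which encodes neuropeptide Y, had 1150, 934 and 1010 counts in D9 NFIAp against 19.6, 15.7 and 18.4 in D7 NFIAn. Both of its groups were tight (5.77 ± 0.43, adjusted p = 1.4e-13). The synapsin gene Syn2 had 299, 88.3 and 64 counts in D9 NFIAp against 0, 3.3 and 0 in D7 NFIAn. Meig1 had 48.7, 57.4 and 129 counts in D9 NFIAp and was at 0 in all 3 D7 libraries, so it was at least 24.4-fold higher, taking 3 reads in each D7 library as the limit.

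The 10 falling genes of largest difference by the same rule were Tnfsf18, F11r, Trib3, Sema3d, Slc7a3, Chac1, Polh, Atf3, Trim6 and Hk3, of which 4 belong to the stress response list. Tnfsf18, a TNF family ligand, was at 0 in all 3 D9 NFIAp libraries against 28.1, 69.2 and 117 counts in D7 NFIAn, and was thus at least 21-fold lower with 3 reads in each D9 library as the limit. F11r, the junctional adhesion molecule A, had 9.73, 4.41 and 4.2 counts in D9 NFIAp against 338, 439 and 404 in D7 NFIAn (-5.87 ± 0.68, adjusted p = 2.1e-08). Sema3d, a secreted semaphorin, had 0, 1.47 and 12.6 counts in D9 NFIAp against 197, 176 and 92.2 in D7 NFIAn. Trim6 had 0.885, 2.94 and 0 counts in D9 NFIAp against 63.9, 51.1 and 44.6 in D7 NFIAn. Hk3, a hexokinase gene, varied more within D9 NFIAp, with 7.96, 182 and 13.6 counts against 508, 771 and 1188 in D7 NFIAn (-4.75 ± 0.98, adjusted p = 0.00098).

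The same step was taken by p2 progenitors, which held 3 D9 NFIAp and 3 D7 NFIAn libraries of their own. Of the 1154 genes that passed in pM, 1121 had the same sign in p2 (97.1%), against 77.8% of all genes tested. Genes picked for their difference in pM lie further from 0 than most, so a higher share says little. Nor were the p2 libraries shown to be independent. Deviations of same-numbered pM and p2 libraries correlated at 0.199, 0.393 and 0.448 at D7, and at 0.271, 0.182 and 0.048 at D9. The list medians in pM and p2 were -1.77 and -1.46 for the integrated stress response, -1.59 and -1.46 for early timing genes, and 1.57 and 1.12 for astroglial genes. Of single genes, Hopx rose by 4.41 in pM and 4.60 in p2, and Trib3 differed by -5.76 in pM and -5.96 in p2.

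The change in pM was then tested against the change in p2. Of 13259 genes 1 passed (0.00754%) in limma and 327 had an unadjusted p under 0.05, while edgeR called 0 and DESeq2 called 6. That gene was Gstt2, a glutathione transferase. In pM it had 0, 5.88 and 0 counts in D9 NFIAp against 32.4, 23.1 and 103 in D7 NFIAn, and the groups did not overlap. In p2 it had 16.1, 30 and 31.1 counts in D9 NFIAp and 20.4, 9.13 and 24.5 in D7 NFIAn, which overlapped. The log2 difference was -4.52 in pM and 0.54 in p2, a difference of -5.07 ± 0.92 between them (adjusted p = 0.021). The call of Gstt2 was lost on leaving out 6 of the 12 libraries in turn: pM D9 NFIAp replicate 1 (adjusted p = 0.082) or 3 (0.12), pM D7 replicate 3 (0.18), p2 D9 NFIAp replicate 2 (0.074) or 3 (0.13), and p2 D7 replicate 2 (0.19). Without pM D9 NFIAp replicate 1 or 3 another gene passed, Sfrp5 and Fcgrt in turn. For Npy and Ntrk2 the change in pM exceeded that in p2 by 2.59 ± 0.61 and 2.71 ± 0.67 on the log2 scale, and neither difference passed in limma (adjusted p = 0.38 and 0.48), though both did in DESeq2 and with correlated libraries. On simulated data of this design 35% of 4-fold differences between the changes were recovered, so many of that size would be missed.

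**Figure D3:**
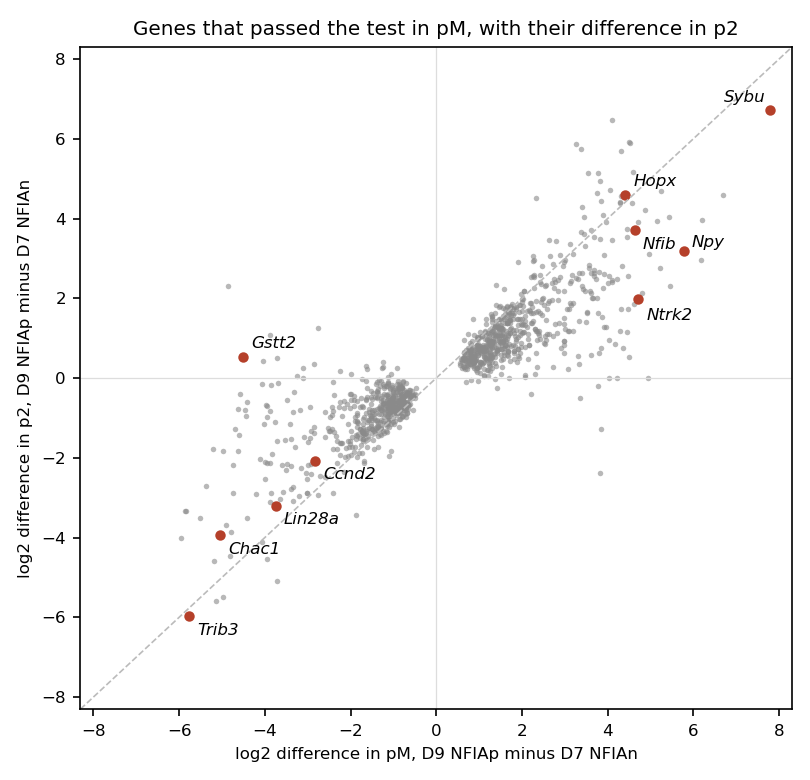
Log2 difference, D9 NFIAp minus D7 NFIAn, in pM (horizontal) and in p2 (vertical) for the 1154 genes that passed the test in pM, with 10 genes named and equality as a dashed line. Of these genes 1121 have the same sign in p2, and Gstt2 stands off the line at -4.52 in pM and 0.54 in p2.

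Day and NFIA gate change together between D7 NFIAn and D9 NFIAp, so they cannot be told apart in that comparison. NFIA-negative pM cells of day 9, of which there were 2 libraries (replicates 1 and 3), hold the day constant. Against them 4 of 13259 genes passed in D9 NFIAp (0.0302%) in limma, with 608 at an unadjusted p under 0.05, while edgeR called 1 and DESeq2 10. All 4 were higher in NFIAp cells. Cdk1 had 11099, 8069 and 9434 counts in D9 NFIAp against 3205 and 3892 in D9 NFIAn (1.42 ± 0.29, adjusted p = 0.045). Cenpl, a kinetochore gene, had 1576, 869 and 797 counts in D9 NFIAp against 463 and 291 in D9 NFIAn (1.49 ± 0.25, adjusted p = 0.0063). Both are genes of dividing cells, and the groups did not overlap. Otor, a gene for a small secreted protein of the cochlea, had 30.1, 47.1 and 70.3 counts in D9 NFIAp against 1.05 and 0 in D9 NFIAn (5.05 ± 0.95, adjusted p = 0.021). Rab30, a Golgi GTPase gene, differed by 1.82 ± 0.36 (adjusted p = 0.034).

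Over the G2 and mitosis list the median log2 difference across the gate was 0.70, against 0.06 for all genes, and the summed level was 85701 to 137906 counts in D9 NFIAp against 62712 to 66474 in D9 NFIAn. The S phase list had a median of 0.05. The count of genes across the gate was 16 without D9 NFIAn replicate 1, 0 without D9 NFIAn replicate 3, 0 without D9 NFIAp replicate 1, 1 without D9 NFIAp replicate 2 and 2 without D9 NFIAp replicate 3. On leaving out the 5 libraries in turn, Cdk1 and Rab30 lost the call in all 5 cases, Otor in 4 and Cenpl in 2. With correlated libraries 71 genes passed, and 22 with the replicate block on the groups compared.

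D9 NFIAn cells lay between the other groups for some genes described above and beside D9 NFIAp for others. Hopx had 1155 to 1282 counts in D9 NFIAp, 484 and 220 in D9 NFIAn and 52.8 to 61 in D7 NFIAn. Lin28a had 16.2 to 39.8 counts in D9 NFIAp, 95.4 and 94.8 in D9 NFIAn and 358 to 433 in D7 NFIAn. In both genes the 3 groups were apart, though D9 NFIAn held only 2 libraries. Neither gene passed across the gate in limma (Hopx 1.88 ± 0.61, adjusted p = 0.68, and Lin28a -1.73 ± 0.60, adjusted p = 0.73). Chac1 had 98.6 to 131 counts in D9 NFIAp and 104 and 148 in D9 NFIAn, which overlapped. The summed level of the stress response list was 61416 to 72009 counts in D9 NFIAp and 67599 to 78304 in D9 NFIAn. Across the gate the list medians were -0.27 for the stress response, -0.50 for early timing genes and 0.44 for astroglial genes.

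Over the whole course of WT pM, from D5 (2 libraries) to D11 NFIAp (2 libraries), the genes of this step followed more than one course. Hopx had 12.4 and 38.6 counts at D5 and 15454 and 13157 at D11, above every D9 library. Nfib had 0.951 and 2.32 counts at D5 and 3136 and 2539 at D11. Lin28a, at 2072 and 4303 counts at D5, had 358 to 433 at D7 and 23.5 and 4.8 counts at D11. Chac1 had 4912 and 6464 counts at D5, overlapping D7, and 106 and 233 at D11, overlapping D9. Npy had 127 and 129 counts at D5, was lowest at D7 with 15.7 to 19.6, and had 819 and 592 at D11. These levels are descriptions and were not tested.

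**Figure D4:**
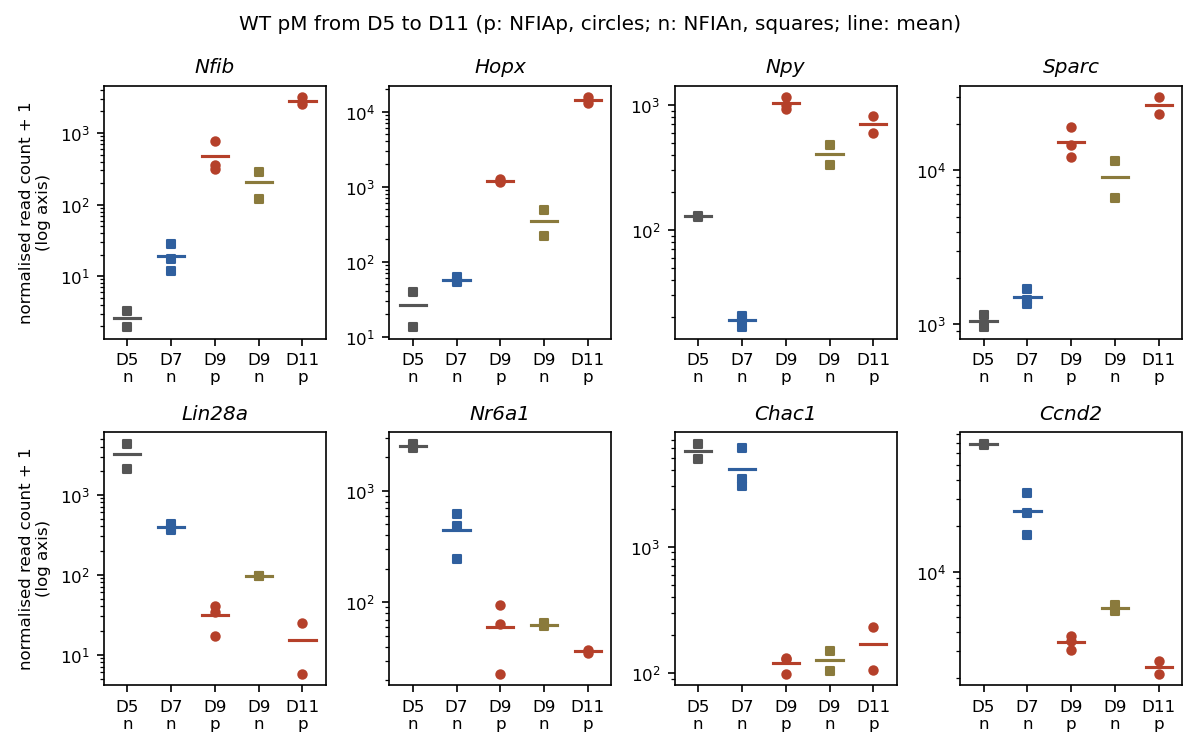
Normalised read counts plus 1 (log axis) of 8 genes in each WT pM library from D5 to D11, with circles for NFIAp, squares for NFIAn and a line at each mean. Chac1 is at 2985 to 5969 counts in D7 NFIAn and at 98.6 to 148 in both D9 groups, whereas Hopx is highest at D11, at 13157 and 15454.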

How the data were processed

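Per the submitters' processing notes, the authors used the mm10 build and DESeq2, while aligner and annotation are not given in the sources used here. Their deposited table holds a signal per gene, read counts normalised between libraries. Division by the value of 1 read in each library gave whole numbers for 100% of values, within 0.01, and these are the recovered reads. All table columns had a sample (0 without).

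The 6 pM libraries were compared with limma 3.58.1 (variance trend, R 4.3.3) on log2(count + 1), with a mean for each group fitted over all 66 libraries. Genes with at least 10 counts in at least 2 of the 6 were tested, 13259 of 24410. Tests were two-sided, with Benjamini-Hochberg adjustment over the genes tested and a threshold of 0.05. Fold changes on this scale understate those of low genes.

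Members and lists were chosen with earlier results of these data known. Named genes are the 10 rising and 10 falling of largest difference (mean of at least 50, no overlap, same sign in replicate 1, gene models passed over), fixed regulators and markers, up to 4 called and 2 uncalled members of each list, and the genes called between domains. Some genes the rule names are not reported here. Replicates were never identical (13 pairs, lowest chi-square per degree of freedom 30.56). Positions are from GENCODE M21, promoters from RefSeq.

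Alternatives were edgeR 4.0.16, DESeq2 1.42.0 on recovered reads, TMM, equal totals, other filters and pseudocounts, other fits, and leaving out libraries. Tested on simulated data, the main comparison recovered 16% of genes changed 2-fold and 67% of those changed 4-fold, and the gate comparison 14% and 64%. Reads carry no molecular identifiers, so limits from 3 reads cover counting error only.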

Additional observations from a re-analysis of the deposited data

Results flagged for a closer look

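The change of Gstt2 from D7 NFIAn to D9 NFIAp differed between domains, by -5.07 on the log2 scale (pM minus p2). In pM its D9 NFIAp libraries all lay below its D7 NFIAn libraries, and in p2 the groups overlapped. The gene reached 103 counts in pM D7 replicate 3, its highest of these libraries. The call was lost without that library (adjusted p = 0.18), and likewise without pM D9 NFIAp replicate 1 or 3, p2 D9 NFIAp replicate 2 or 3, or p2 D7 replicate 2 (0.074 to 0.19). The cause was not tested.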

How the results depend on the processing

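The genes that passed between D9 NFIAp and D7 NFIAn pM numbered 1154, and 1763 with a term for libraries of high total, 267 when only the groups compared were fitted, 720 with the replicate block in that fit, 669 after scaling to equal totals, and 540 to 1590 on leaving out 1 library. Of the 1154 genes, 500 passed after scaling to equal totals, which moved the median of all genes to -0.20. The share of higher genes was 53.6%, 65.3% with that replicate block and 45.6% without D9 NFIAp replicate 1. The difference between pM and p2 gave 1 gene, with 6 by DESeq2, 3 with the high-total term, no filter or the replicate block over all libraries, 5 with correlated libraries, and 0 by edgeR, with a filter at 50, a pseudocount of 8, WT libraries only, only the groups compared (also with the replicate block) or without high-total libraries. Leaving out 1 library gave 0 to 1. The gate gave 4 genes, with 10 by DESeq2, 7 with the high-total term, 1 by edgeR or with WT libraries only, 2 with a filter at 50 or a pseudocount of 8, 71 with correlated libraries, 22 without a filter, 22 with the replicate block on the groups compared, 0 with only those groups or equal totals, and 0 to 16 on leaving out 1 library. Replicate 1 alone allows no count. Between D9 NFIAp and D7 NFIAn pM, deviations of same-numbered libraries correlated at 0.205, -0.119 and 0.145, so the numbers were not taken to pair them. Within a day they correlated at 0.189 across the gate (2 numbers, which mirror each other), at 0.271, 0.182 and 0.048 between pM and p2 at D9, and at 0.199, 0.393 and 0.448 between pM and p2 at D7. Of 67 named genes that passed, 41 did so under every alternative, 25 lost the call only on leaving out libraries, fitting only the groups compared or equal totals, and 5 of these lost it on leaving out 1 library. Genes near 0 changed sign: Glul (-0.03 at equal totals, -0.06 to 0.48 on leaving out 1 library), Nkx6-1 (-0.31 to 0.59 on leaving out 1), Neurog2 (-0.15 without high-total libraries), Hmga2 (0.03 with the high-total term, -0.19 to 0.09 on leaving out 1, 0.16 without high-total libraries), Pcna (-0.38 to 0.03 on leaving out 1), Cdk1 (-0.02 at equal totals), Ccnb1 (0.44 without high-total libraries) and Gja1 (-0.69 to 0.01 on leaving out 1, 0.22 without high-total libraries). Calls were gained by Glul without high-total libraries (adjusted p = 0.042), by Tubb3, Phgdh and Psph with the high-total term (0.016, 0.04 and 0.0047) or equal totals (0.028, 0.039 and 0.0004), and by Sox9 as given above. Falling S phase genes numbered 1 to 16 against 13 over the alternatives. With only the groups compared, early timing genes gave 5 against 8 lower, G1 genes 2 against 4 lower, Wnt genes 0 against 3 lower and Hox genes 1 against 3 higher. At equal totals, radial glial genes gave 3 against 6 higher and Wnt genes 1 lower. Causes were not tested. With 3 libraries a group, most 2-fold changes would be missed.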
